A study of Mus musculus with 12 samples.

Results

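The interferon response genes are transcripts that cells raise after interferon has bound its receptors, and they were followed here in mouse fibroblasts that carried either of 2 forms of the nuclear receptor PPARγ. The members were given as a list of 40 gene symbols, and each was read from its brightest probe set among those assigned to a single symbol. That rule found 37 of the 40 among the 12393 genes of the array, and 33 of them lay above an intensity of 132.3, the 30th percentile of all genes, and were tested among 8675 genes. Ifih1, Mx1, Mx2 and Parp14 lay below that level. Isg15, Ifi44 and Xaf1 have no value here, because no probe set with a single symbol carried them.

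Type I interferons signal through a receptor that activates the kinases JAK1 and TYK2, after which a complex that includes STAT2 and IRF9 binds interferon-stimulated response elements (ISRE). Interferon-γ has its own receptor, and genes that respond to it carry gamma-activated sites (GAS). The proteins made from these genes bind foreign RNA, hold budding virus at the cell surface, attack pathogen-containing vacuoles or load peptides onto MHC class I, and some of them, such as USP18, damp the signal itself. Fibroblasts respond to interferon and keep a low tonic level of many of these transcripts.

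All cells were PPARgamma KO MEFs, that is, embryonic fibroblasts from mice without the PPARγ gene, into which a receptor had been put back. Total RNA was hybridised to Affymetrix arrays after 6 days of differentiation towards fat cells. One group carried S273APPARgamma, in which alanine replaces the serine that kinases phosphorylate, without ligand; its samples are titled as mutant. Cells with wtPPARgamma formed the other groups, which were treated for 24 h with 1 µM rosiglitazone, a full agonist of the receptor, treated for 24 h with 1 µM MRL24, another PPARγ ligand, or left untreated. Each of the 4 groups had 3 arrays. The labels name 1 set of cells for each form of the receptor, so what the substitution did and how the cell populations differed otherwise cannot be told apart. Vehicle treatment of the untreated cells, the promoter behind the introduced gene and the use of separate cultures for the arrays of a group are not mentioned in the labels. The p-values therefore weigh differences against array-to-array spread alone, and that spread may be technical. In RNA from whole cultures, fewer cells of a type and less RNA per cell cannot be told apart.

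The median intensity of an array was 296.8 to 314.9, and precision is limited by the number of arrays. The array of untreated wild-type replicate 2 stood apart, with a score of -16.07 on a first principal component that held 25.8% of the variance, against -6.05 to 7.92 on the other 11 arrays. Results that rest on it are also given without it. Differences below are log2 changes of intensity + 16, which understates the change of dim genes, and a gene was called when limma's adjusted p over all 8675 genes was under 0.05. With 3 arrays in each group, 0.1 is the smallest p that an exact permutation test can reach. The cells are labelled as differentiated MEFs, adipocytes. Fabp4, a fatty acid carrier of adipocytes, read 10156, 9702 and 9246 in S273A cells, 25237, 25308 and 24915 with rosiglitazone, 15345, 15535 and 15137 with MRL24, and 9320.2, 10368 and 8838 in untreated wild-type cells. Adipoq, which encodes adiponectin, lay at 37.3 to 143 over the 12 arrays and Cidec, a lipid droplet protein, at 2.9 to 119, so not all defining markers of mature fat cells were bright. Pparg, which the cells received by transfer, averaged 1073 ± 162 in S273A cells, against 904 ± 97.7 in untreated wild-type cells (SD, n = 3 each).

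Promoter sequence was at hand for 31 of the 40 members, in RefSeq windows of 300 bases on GRCm38.p6 that run from 250 bases before to 50 bases after an annotated start. The members without a window are Dhx58, Ifi27l2b, Iigp1, Mx1, Mx2, Parp14, Rtp4, Tap2 and Usp18. An ISRE-like core, GAAANNGAA on either strand, occurred in 19 of the 31 members (61.3%), against 9.76% of the 27025 genes with a window and 8.19% of the 7034 tested genes with one. At least 2 matches, overlapping ones counted separately, occurred in 10 members (32.3%), against 0.736% of all genes. The GAS core TTCNNNGAA, which reads the same on both strands, occurred in 9 members (29.0%), against 9.55% of all genes. Such a match is a description of the letters and not a shown binding site.

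The sequences below are shown because they place the members that fell with S273A beside members that did not pass the test. They are stretches of 120 bases before the start, 5′ to 3′ in the direction of transcription, with motif matches in capitals. The first 5 belong to members that fell with S273A and hold 2 or 3 ISRE-like matches. Those of Ifit1 lie at chr19:34640737-34640856 (plus strand), of Ifit3 at chr19:34583345-34583464 (plus strand), of Bst2 at chr8:71537536-71537655 (minus strand), of Gbp3 at chr3:142559924-142560043 (plus strand) and of Irgm1 at chr11:48871421-48871540 (minus strand). The last 2 belong to members that did not pass the test with S273A, Igtp at chr11:58199436-58199555 (plus strand) and Rsad2 at chr12:26456508-26456627 (minus strand).
Ifit1: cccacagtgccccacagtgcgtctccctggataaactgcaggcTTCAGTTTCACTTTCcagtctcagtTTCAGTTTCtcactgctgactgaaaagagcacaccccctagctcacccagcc
Ifit3: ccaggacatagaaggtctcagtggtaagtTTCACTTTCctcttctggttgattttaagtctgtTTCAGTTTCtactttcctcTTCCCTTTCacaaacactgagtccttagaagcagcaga
Bst2: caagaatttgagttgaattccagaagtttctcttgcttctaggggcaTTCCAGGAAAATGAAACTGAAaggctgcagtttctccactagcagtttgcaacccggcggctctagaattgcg
Gbp3: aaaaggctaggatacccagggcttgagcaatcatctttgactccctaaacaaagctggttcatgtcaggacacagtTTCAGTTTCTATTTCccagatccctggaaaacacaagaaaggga
Irgm1: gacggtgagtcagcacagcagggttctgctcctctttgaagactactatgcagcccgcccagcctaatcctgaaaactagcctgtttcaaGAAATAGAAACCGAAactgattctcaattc
Igtp: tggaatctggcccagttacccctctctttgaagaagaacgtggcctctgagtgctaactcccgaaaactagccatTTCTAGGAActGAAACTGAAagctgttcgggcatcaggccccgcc
Rsad2: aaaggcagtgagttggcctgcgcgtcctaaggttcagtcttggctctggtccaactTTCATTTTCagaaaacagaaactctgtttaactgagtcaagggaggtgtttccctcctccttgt

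In Ifit1, Bst2, Gbp3 and Irgm1 a pair of ISRE-like matches overlapped by 3 bases and so made an unbroken run of capitals, and in Bst2 that run was also overlapped by a GAS match. Among the members that fell with S273A, 7 of the 11 with a window held an ISRE-like match (63.6%), against 9 of the 16 that were tested and did not pass (56.2%). At least 2 matches occurred in 6 of the 11 (54.5%), the sixth being Ifitm3 with matches after the start, against 2 of the 16 (12.5%), which were Adar and Eif2ak2. A GAS match occurred in 5 of the 11 (45.5%), against 4 of the 16 (25.0%).

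**Figure D1:**
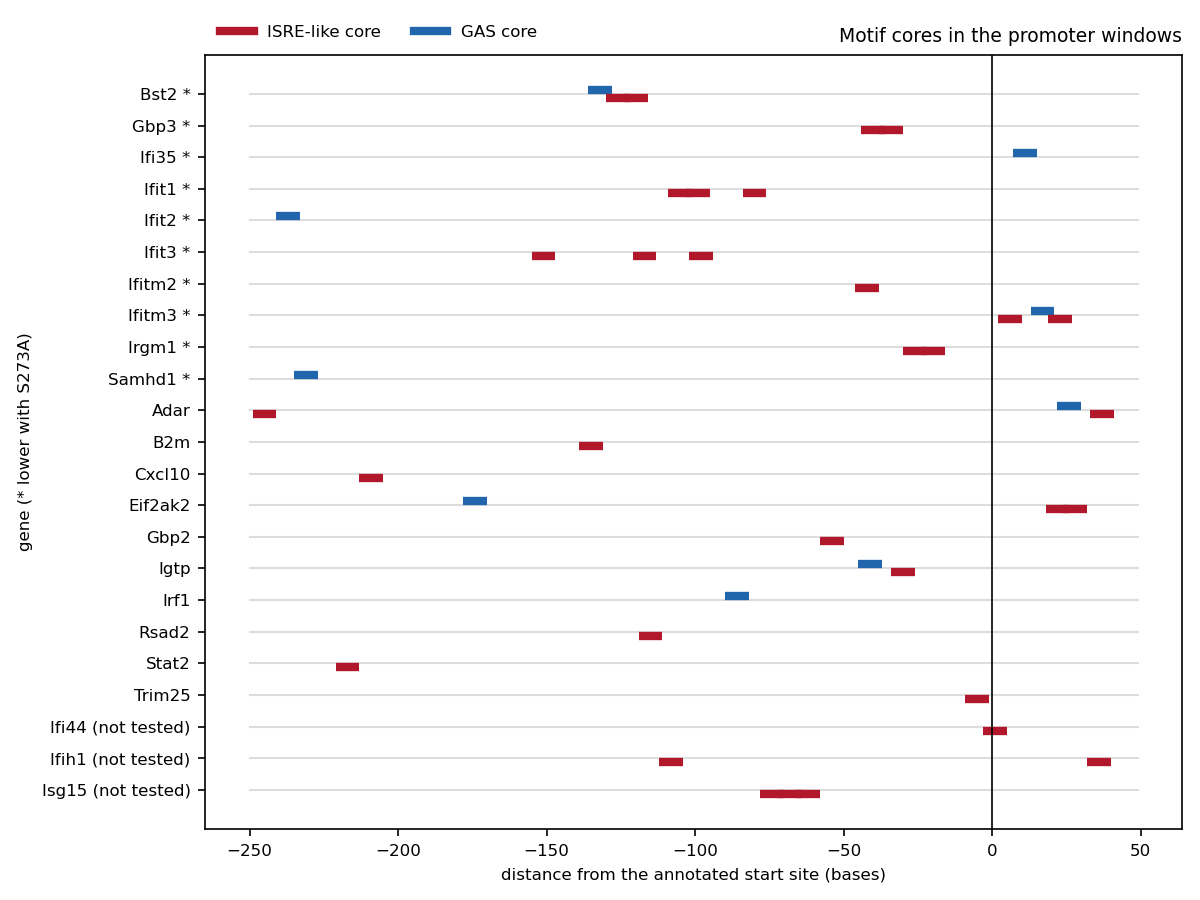
Position of ISRE-like cores (red) and GAS cores (blue) in the promoter windows of the members that hold at least 1 match, with distance from the annotated start site in bases on the x axis and 1 gene per line. An asterisk marks members that fell with S273A, and the paired ISRE-like matches of Ifit1, Bst2, Gbp3 and Irgm1 lie within 130 bases before the start.

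The title of the series asks which genes depend on the phosphorylation of PPARγ, and the comparison of S273A with untreated wild-type cells bears on that. In S273A cells a block of interferon response genes was lower than in untreated wild-type cells. Of the 33 tested members 13 fell (39.4%) and 0 rose, where 5.48% of all tested genes fell and 2.31% rose. The members were chosen with earlier results of these data known, so these shares describe the list and are no independent test of it. The members that fell were Bst2, Usp18, Gbp3, Ifit1, Ifit2, Ifit3, Ifi35, Ifi27l2b, Ifitm2, Ifitm3, Irgm1, Oasl2 and Samhd1, by 0.14 to 0.52 on the log2 scale, which is 9.4% to 30.3% lower. The median change over all 33 was -0.17, against -0.005 over all tested genes, and 26 of the 33 lay below 0, against 51.6% of all genes. At an unadjusted p under 0.05 the count was 17. Counts at that level, here and below, were not taken over all tested genes and so have no share to set beside them. The 3 S273A arrays all lay below the 3 untreated wild-type arrays in 17 members and all above in 1, where 13.9% and 9.11% of all tested genes did so.

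Without the array of untreated wild-type replicate 2, 11 of the 13 calls remained, and Ifi27l2b (adjusted p = 0.0545) and Ifitm2 (adjusted p = 0.0879) were lost. Fitted on the 6 arrays of S273A and untreated wild-type cells alone, 8 of the members were called, and Gbp3 (adjusted p = 0.0604), Oasl2 (adjusted p = 0.0549), Ifit2 (adjusted p = 0.101), Ifitm2 (adjusted p = 0.14) and Ifitm3 (adjusted p = 0.127) were lost.

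**Figure D2:**
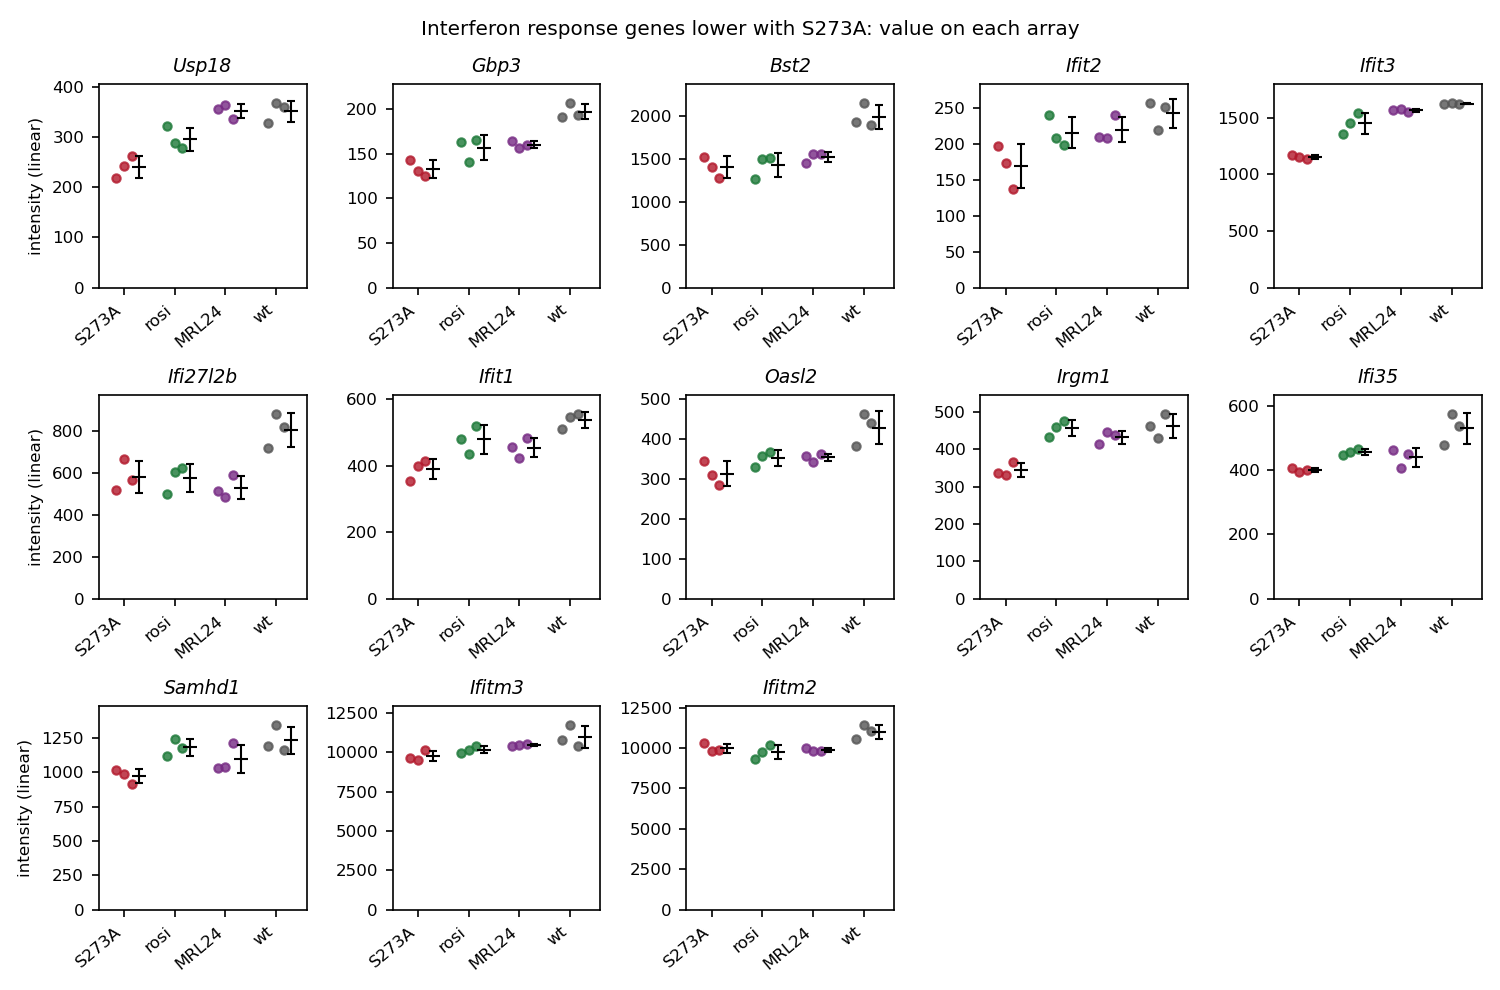
Intensity on each of the 12 arrays for the 13 members that fell with S273A, 1 panel per gene with a linear y axis from 0, for S273A, wild-type with rosiglitazone (rosi), wild-type with MRL24 and untreated wild-type (wt) cells. Points are arrays, bars are the mean ± SD (n = 3), and in every panel the S273A arrays lie below the untreated wild-type arrays.

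The members that sense nucleic acid or carry the interferon signal did not pass the test with S273A, 0 of 6. Over all tested genes 5.48% fell and 2.31% rose, so 0 of 6 does not set these members apart. Irf1, a transcription factor induced most by interferon-γ, read 1961, 1959.9 and 1668 in S273A cells, 1919, 1859.6 and 1925 with rosiglitazone, 1948, 1872 and 1914 with MRL24, and 1884, 1741 and 1898 in untreated wild-type cells, and its S273A difference was 0.01 (95% interval -0.12 to 0.15, adjusted p = 0.934). Stat2, the subunit of the type I complex that carries its activation domain, differed by -0.15 (95% interval -0.33 to 0.03, adjusted p = 0.315). Irf9, its DNA-binding partner, read 513, 564 and 490.4 in S273A cells, 617, 659 and 535 with rosiglitazone, 604, 606 and 621 with MRL24, and 627, 573 and 631 in untreated wild-type cells. All 3 S273A arrays of Irf9 were below the untreated wild-type ones, with a difference of -0.22 (95% interval -0.39 to -0.05, adjusted p = 0.121). Irf7, which amplifies the production of type I interferon, differed by -0.13 (95% interval -0.27 to 0.02, adjusted p = 0.288), also with no overlap of the arrays. Dhx58, an RNA helicase related to RIG-I, differed by 0.03 (95% interval -0.16 to 0.22, adjusted p = 0.887) and its arrays overlapped. Trim25, described further on, differed by -0.16 (95% interval -0.28 to -0.03, adjusted p = 0.132), also with overlapping arrays. The other probe sets of Trim25 changed by -0.29 and 0.07. Ifih1, which encodes the RNA sensor MDA5, lay below the filter at 78.9 to 150.2 over the 12 arrays.

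Usp18, a protease that removes ISG15 from proteins and also blocks the type I receptor, showed one of the deepest differences. It read 219, 242 and 263 in S273A cells, 322, 289 and 278 with rosiglitazone, 356, 363 and 337 with MRL24, and 328, 368 and 359 in untreated wild-type cells. The S273A arrays were the lowest 3 of the 12, the MRL24 arrays lay among the untreated ones, and the rosiglitazone arrays lay in between. With S273A Usp18 fell by 0.52 (SE 0.09, adjusted p = 0.00258), which is 30.3% lower, and the call held under every alternative that tested it.

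Of the 6 members that bind RNA or block its translation, 4 fell with S273A, where 5.48% of all tested genes fell. The IFIT proteins recognise viral RNA by its 5′ end and stop its translation. Ifit3 read 1170.0, 1155 and 1133 in S273A cells, 1358, 1450.1 and 1537 with rosiglitazone, 1570.5, 1572 and 1546 with MRL24, and 1616, 1629 and 1622 in untreated wild-type cells. Its S273A arrays were the lowest of the 12 and its untreated wild-type arrays the highest, with little spread in either group. It fell by 0.49 (SE 0.05, adjusted p = 3.03e-05), or 28.7%. Ifit1 read 355, 398 and 415 in S273A cells, 481, 435 and 520.3 with rosiglitazone, 457, 424 and 482 with MRL24, and 509.6, 546 and 555 in untreated wild-type cells. Its 3 S273A arrays again lay below all others, and it fell by 0.45 (SE 0.09, adjusted p = 0.00378). Ifit2 read 198, 174 and 137 in S273A cells, 239.8, 208 and 199 with rosiglitazone, 210.3, 209 and 240.1 with MRL24, and 257, 219.6 and 251 in untreated wild-type cells. Its S273A arrays were the lowest but spread widely, and it fell by 0.49 (SE 0.13, adjusted p = 0.0287). The Ifit2 call was lost without untreated wild-type replicate 1 (adjusted p = 0.0828) or 3 (adjusted p = 0.0762) and without S273A replicate 2 (adjusted p = 0.0652) or 3 (adjusted p = 0.13), and when no filter was set (adjusted p = 0.0573).

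Oasl2, an oligoadenylate synthetase-like protein, read 346, 310.4 and 283 in S273A cells, 330.4, 358 and 367 with rosiglitazone, 356, 343 and 361 with MRL24, and 383, 462 and 439 in untreated wild-type cells. The untreated wild-type arrays were the highest 3 of the 12, and the gene fell by 0.43 (SE 0.09, adjusted p = 0.0088) with S273A, a call lost on the 6 arrays of the compared groups (adjusted p = 0.0549). The other members of the group did not pass. Eif2ak2, the RNA-activated kinase PKR, differed by 0.07 (95% interval -0.09 to 0.23, adjusted p = 0.652) and its window holds a pair of ISRE-like matches after the start. Adar, which edits adenosine to inosine in double-stranded RNA, read 328, 335 and 332 in S273A cells, 349, 357 and 385 with rosiglitazone, 429.6, 353 and 385 with MRL24, and 421, 362 and 352 in untreated wild-type cells. Its S273A arrays were below all others and yet close to them, with a difference of -0.18 (95% interval -0.37 to 0.02, adjusted p = 0.274).

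Among the other antiviral effectors 4 of 7 fell with S273A, where 5.48% of all tested genes fell. Bst2 (tetherin), which holds budding virus at the cell surface, read 1531, 1411 and 1281 in S273A cells, 1266, 1501 and 1517 with rosiglitazone, 1461, 1565 and 1559 with MRL24, and 1931, 2157 and 1896 in untreated wild-type cells. Here the untreated wild-type cells stood alone above the 9 arrays of the other groups, and with S273A the gene fell by 0.50 (SE 0.08, adjusted p = 0.00101). Samhd1, which depletes the nucleotides that reverse transcription needs, read 1014, 986 and 914 in S273A cells, 1122, 1245 and 1176 with rosiglitazone, 1035, 1042 and 1212 with MRL24, and 1190.2, 1345 and 1161 in untreated wild-type cells. Its S273A arrays were the lowest 3, and it fell by 0.34 (SE 0.08, adjusted p = 0.0118). A second probe set of Samhd1 changed by 0.01, and the mean over all its probe sets gave no call (adjusted p = 0.993), so that call rests on 1 probe set. It was also lost without S273A replicate 3 (adjusted p = 0.0597).

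The IFITM proteins sit in membranes and hinder the entry of enveloped viruses. Ifitm3 read 9654, 9484 and 10108 in S273A cells, 9963, 10159.6 and 10372 with rosiglitazone, 10377, 10459 and 10538 with MRL24, and 10790.5, 11729.7 and 10387 in untreated wild-type cells. The S273A arrays lay below the untreated wild-type ones by a small margin, and the gene fell by 0.17 (SE 0.04, adjusted p = 0.0217). Ifitm2 read 10292, 9792 and 9859 in S273A cells, 9327, 9772 and 10205 with rosiglitazone, 10030.4, 9850.0 and 9825 with MRL24, and 10563, 11436 and 11070.4 in untreated wild-type cells, with the untreated wild-type arrays above the other 9, and it fell by 0.14 (SE 0.04, adjusted p = 0.0398). Ifitm1 differed by 0.07 (95% interval -0.10 to 0.24, adjusted p = 0.68) and its arrays overlapped. These genes are related copies, and whether their probe sets share RNA was not tested. The Ifitm3 call was lost without S273A replicate 1 (adjusted p = 0.0619) or 2 (adjusted p = 0.0957), after quantile normalization (adjusted p = 0.0545) and with no trend of variance on intensity in limma (adjusted p = 0.0932). The Ifitm2 call was lost without untreated wild-type replicate 2 (adjusted p = 0.0879) or 3 (adjusted p = 0.0887), S273A replicate 2 (adjusted p = 0.135) or 3 (adjusted p = 0.12), rosiglitazone replicate 2 (adjusted p = 0.055) or MRL24 replicate 1 (adjusted p = 0.0583), 2 (adjusted p = 0.0607) or 3 (adjusted p = 0.0558). It was also lost with no filter (adjusted p = 0.0731), with arrays scaled to the same median (adjusted p = 0.0568), after quantile normalization (adjusted p = 0.0779), on the 6 arrays of the compared groups (adjusted p = 0.14), with array weights (adjusted p = 0.0715), with no trend (adjusted p = 0.135) and with the replicate number as a block (adjusted p = 0.07), and so held under 9 of its 24 alternatives.

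Rsad2 (viperin), which makes a chain-terminating nucleotide, read 449, 337 and 299.7 in S273A cells, 378, 428 and 402 with rosiglitazone, 401, 436 and 372 with MRL24, and 395, 392 and 466 in untreated wild-type cells. S273A replicate 1 lay within the range of the other groups, while replicates 2 and 3 lay below it. The difference was -0.21 (95% interval -0.47 to 0.04, adjusted p = 0.331). Without S273A replicate 1 Rsad2 would have been called, at -0.37 (adjusted p = 0.0477). A second Rsad2 probe set of similar brightness changed by -0.01 with S273A, and a dim one by 0.28. Rtp4, a receptor transporter protein, differed by -0.17 (95% interval -0.34 to 0.01, adjusted p = 0.255). Mx1 and Mx2, dynamin-like GTPases that trap viral nucleocapsids, were dim, at 19.9 to 60.7 and 1.0 to 12.9 over the 12 arrays, and were not tested in the main comparison.

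Of the 6 interferon-inducible GTPases, which act on membranes around intracellular pathogens, 2 fell with S273A, where 5.48% of all tested genes fell. Gbp3, a guanylate-binding protein, read 143, 130.0 and 124 in S273A cells, 163, 141 and 166 with rosiglitazone, 164, 156 and 160.0 with MRL24, and 191, 207 and 193 in untreated wild-type cells. The untreated wild-type arrays were the highest 3, and the gene fell by 0.52 (SE 0.11, adjusted p = 0.0107). On the 6 arrays of the compared groups that call was lost (adjusted p = 0.0604). Irgm1, an immunity-related GTPase that regulates autophagy and its relatives, read 338, 331 and 365 in S273A cells, 434, 461 and 476 with rosiglitazone, 414, 447 and 438 with MRL24, and 464, 429.9 and 495 in untreated wild-type cells. Only the S273A arrays were low, while the arrays of both ligand groups overlapped those of untreated wild-type cells, and Irgm1 fell by 0.41 (SE 0.08, adjusted p = 0.00383).

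Iigp1, an effector GTPase that binds the parasite vacuole, read 147, 127 and 146 in S273A cells, 168, 155 and 160.1 with rosiglitazone, 166, 167 and 185 with MRL24, and 197, 193 and 149 in untreated wild-type cells. Its S273A arrays were the lowest 3 but it did not pass, at -0.32 (95% interval -0.59 to -0.05, adjusted p = 0.15). It would have been called without untreated wild-type replicate 3 (-0.44, adjusted p = 0.049). The other GTPases moved less. Gbp2 differed by 0.15 (95% interval -0.09 to 0.39, adjusted p = 0.492), Igtp by -0.06 (95% interval -0.34 to 0.22, adjusted p = 0.846) and Ifi47 by -0.11 (95% interval -0.32 to 0.10, adjusted p = 0.577), all with overlapping arrays.

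Of the 4 genes of antigen presentation 0 passed the test with S273A. With 5.48% of all tested genes lower and 2.31% higher, 0 of 4 does not set them apart. B2m, the light chain of MHC class I, read 17747, 18159 and 18244 in S273A cells, 17843, 18117 and 17788 with rosiglitazone, 18223, 17980.0 and 18520.0 with MRL24, and 18281, 17564 and 17705 in untreated wild-type cells. The groups overlapped fully and the difference was 0.02 (95% interval -0.04 to 0.08, adjusted p = 0.801), and changes as large as those of the IFIT genes lie outside its interval. Tap1, a subunit of the peptide transporter, read 243, 297 and 228 in S273A cells, 209.9, 285 and 235 with rosiglitazone, 257, 282 and 254 with MRL24, and 215, 192 and 199.9 in untreated wild-type cells. It was the only tested member with all S273A arrays above the untreated wild-type ones, and its difference of 0.31 (95% interval 0.05 to 0.57, adjusted p = 0.144) did not pass. Tap2, the other subunit, differed by -0.06 (95% interval -0.41 to 0.28, adjusted p = 0.873), and Tapbp (tapasin), which bridges the transporter to MHC class I, by -0.01 (95% interval -0.14 to 0.11, adjusted p = 0.932).

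Among the remaining members, Ifi35, an interferon-induced leucine zipper protein, read 406, 395 and 401 in S273A cells, 447, 457 and 468 with rosiglitazone, 465, 408 and 450.2 with MRL24, and 480.5, 576 and 538 in untreated wild-type cells. Its S273A arrays were the lowest and its untreated wild-type arrays the highest, and it fell by 0.39 (SE 0.08, adjusted p = 0.00586). Ifi27l2b, of the ISG12 family, read 516, 665 and 563 in S273A cells, 496, 604 and 622 with rosiglitazone, 511, 484 and 589 with MRL24, and 718, 879 and 817 in untreated wild-type cells, with only the untreated wild-type arrays high. It fell by 0.46 (SE 0.11, adjusted p = 0.0165). Its probe set is of the kind whose probes may match other transcripts, and the call was lost without untreated wild-type replicate 2 (adjusted p = 0.0545) and without S273A replicate 1 (adjusted p = 0.0695) or 3 (adjusted p = 0.0632), and with array weights (adjusted p = 0.0556). Cxcl10, a chemokine that draws T cells, read 98.8, 165 and 191 in S273A cells, 264, 215 and 144 with rosiglitazone, 204, 266 and 274 with MRL24, and 187, 230.0 and 168 in untreated wild-type cells. It had the largest standard error of the tested members, and its difference was -0.37 (95% interval -0.83 to 0.10, adjusted p = 0.358). Parp14, an ADP-ribosyltransferase, lay below the filter at 85.6 to 175.

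**Figure D3:**
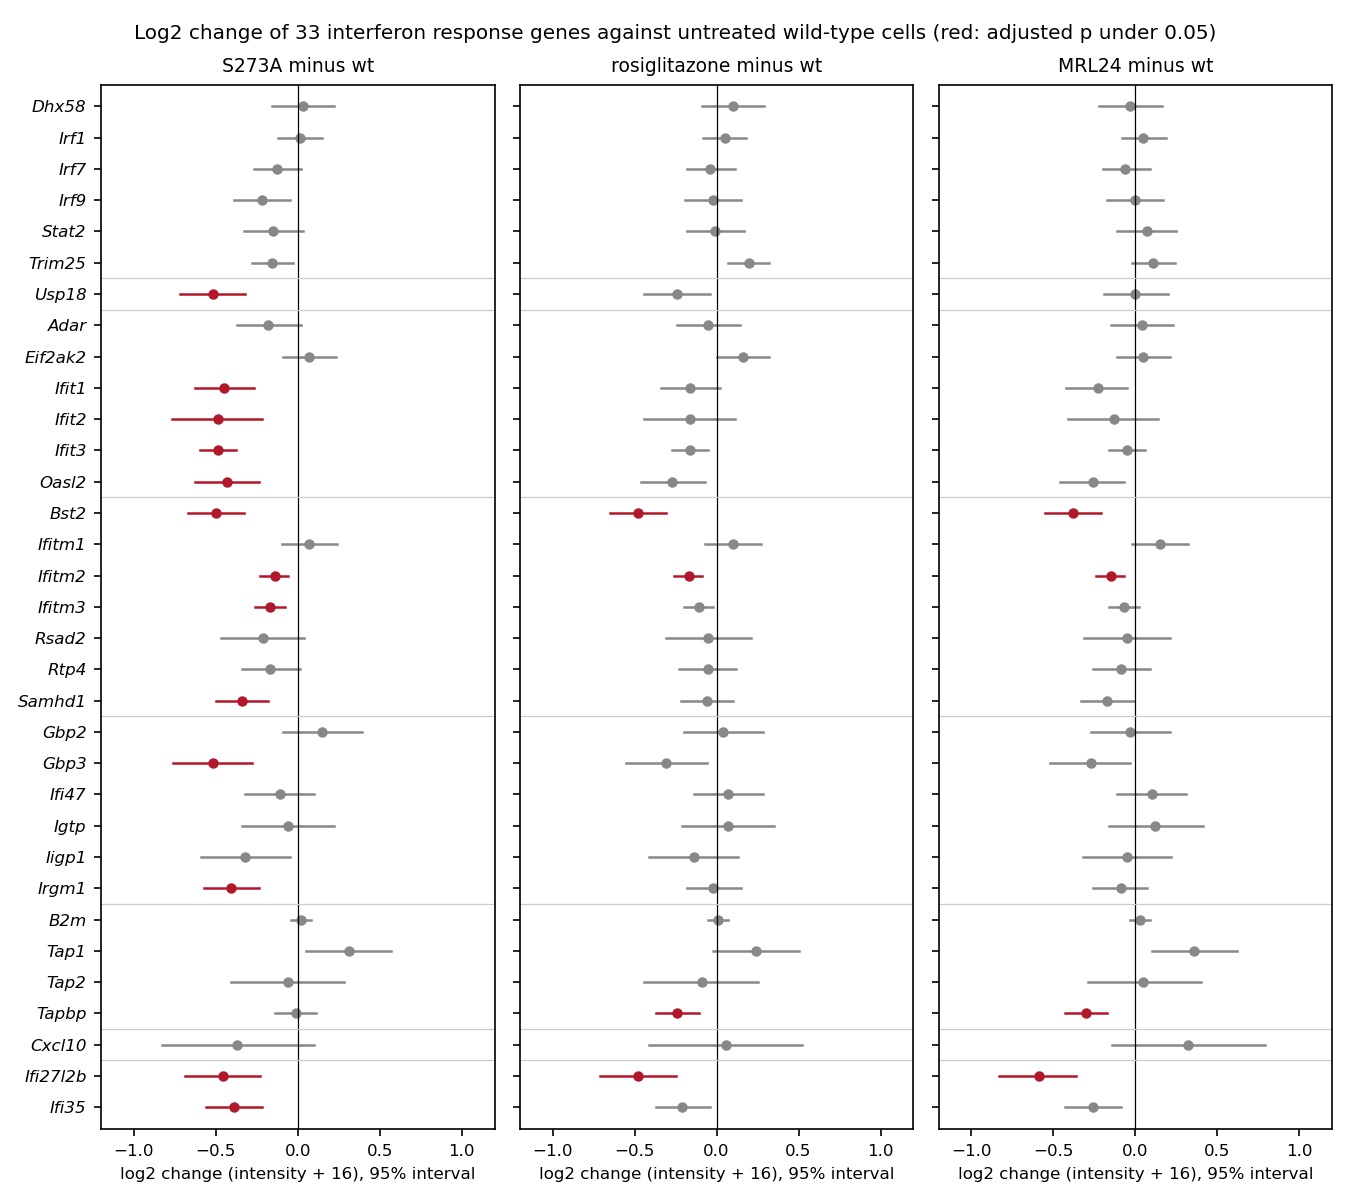
Log2 change (intensity + 16) of the 33 tested members for S273A, rosiglitazone and MRL24, each minus untreated wild-type, as points with 95% intervals, and red where the adjusted p was under 0.05. Lines separate the groups by role; 13 members are red and below 0 with S273A, and 4 with each ligand.

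With either ligand Bst2, Ifi27l2b and Ifitm2 were lower than in untreated wild-type cells. Tapbp was also lower by its brightest probe set, while a second one changed the other way. With rosiglitazone 4 of 33 members fell (12.1%) and 0 rose, where 4.58% of all tested genes fell and 3.94% rose. With MRL24 4 of 33 fell (12.1%) and 0 rose, where 2.47% fell and 3.39% rose. The comparisons share the untreated wild-type arrays. The median change was -0.05 with each ligand, against -0.003 over all genes with rosiglitazone and 0.009 with MRL24. At an unadjusted p under 0.05 the counts were 11 and 10, with no share over all tested genes taken. Under other settings, given below, Trim25 was called higher with either ligand.

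Bst2 fell by 0.48 (SE 0.08, adjusted p = 0.00112) with rosiglitazone and fell by 0.38 (SE 0.08, adjusted p = 0.0147) with MRL24, with its array values given above. The MRL24 call was lost without untreated wild-type replicate 2 (adjusted p = 0.0579) and without MRL24 replicate 1 (adjusted p = 0.0576) or 3 (adjusted p = 0.0548). Ifi27l2b fell by 0.48 (SE 0.11, adjusted p = 0.0124) with rosiglitazone and fell by 0.59 (SE 0.11, adjusted p = 0.00935) with MRL24 (dim Mx1, below the filter, is described further on). The rosiglitazone call of Ifi27l2b was lost without untreated wild-type replicate 2 (adjusted p = 0.0501) or rosiglitazone replicate 1 (adjusted p = 0.0632). Ifitm2 fell by 0.17 (SE 0.04, adjusted p = 0.0124) with rosiglitazone and fell by 0.15 (SE 0.04, adjusted p = 0.0361) with MRL24. Its rosiglitazone call was lost without rosiglitazone replicate 1 (adjusted p = 0.0664), on the 6 arrays of the compared groups (adjusted p = 0.0716) and with no trend (adjusted p = 0.067). Its MRL24 call was lost without untreated wild-type replicate 2 (adjusted p = 0.11) or 3 (adjusted p = 0.0566), rosiglitazone replicate 2 (adjusted p = 0.0502) or MRL24 replicate 1 (adjusted p = 0.0783), 2 (adjusted p = 0.117) or 3 (adjusted p = 0.126), and with no filter (adjusted p = 0.0701), on the 6 arrays (adjusted p = 0.0849), with no trend (adjusted p = 0.112) and with the replicate number as a block (adjusted p = 0.0616).

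Tapbp read 2625, 2576 and 2680.0 in S273A cells, 2098, 2233 and 2426 with rosiglitazone, 2200.2, 2156 and 2105 with MRL24, and 2621, 2879 and 2474 in untreated wild-type cells. Both ligand groups lay below the S273A and the untreated arrays, which overlapped. It fell by 0.24 (SE 0.06, adjusted p = 0.0231) with rosiglitazone and fell by 0.30 (SE 0.06, adjusted p = 0.0138) with MRL24. A second Tapbp probe set changed the other way, by 0.15 with rosiglitazone and 0.31 with MRL24, and the mean over both probe sets gave no call (0.01 with MRL24, adjusted p = 0.942). The rosiglitazone call was lost without untreated wild-type replicate 2 (adjusted p = 0.0791) or rosiglitazone replicate 1 (adjusted p = 0.106) or 2 (adjusted p = 0.0825), and the MRL24 call without MRL24 replicate 2 (adjusted p = 0.0511) or 3 (adjusted p = 0.0667). Both were lost on the 6 arrays of the compared groups (adjusted p = 0.101 with rosiglitazone and 0.0514 with MRL24), and the rosiglitazone call with no trend (adjusted p = 0.0568).

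Over the whole list the number of calls with rosiglitazone was 3 without untreated wild-type replicate 2, of which 2 were among the 4, and 1 without rosiglitazone replicate 1. With MRL24 it was 2 without untreated wild-type replicate 2, MRL24 replicate 1 or MRL24 replicate 2, and 1 without MRL24 replicate 3. Trim25, a ubiquitin ligase that activates RIG-I, read 2043, 2236 and 2102 in S273A cells, 2856, 2691 and 2623 with rosiglitazone, 2539, 2542 and 2601 with MRL24, and 2294, 2613 and 2226 in untreated wild-type cells. All rosiglitazone arrays lay above the others, yet its difference of 0.20 (SE 0.06, adjusted p = 0.053) against untreated wild-type did not pass. It did without untreated wild-type replicate 2 (0.27, adjusted p = 0.00438), with the mean of all its probe sets (0.30, adjusted p = 0.000805), with array weights (adjusted p = 0.0096), after quantile normalization (adjusted p = 0.0395) and with the filter at the 50th percentile (adjusted p = 0.0435). With MRL24 the mean of its probe sets was also called, at 0.20 (adjusted p = 0.027). Its other 2 probe sets changed by 0.08 and 0.63 with rosiglitazone and by -0.05 and 0.53 with MRL24.

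The mean of each of Ifit1, Ifit2 and Ifit3 with either ligand lay between those of S273A and of untreated wild-type cells. Ifit3 differed from untreated wild-type by -0.16 (95% interval -0.27 to -0.05, adjusted p = 0.0652) with rosiglitazone and by -0.05 (95% interval -0.16 to 0.06, adjusted p = 0.556) with MRL24. For Ifit1 these values were -0.16 (95% interval -0.34 to 0.02, adjusted p = 0.265) and -0.23 (95% interval -0.42 to -0.05, adjusted p = 0.104). Usp18 differed by -0.24 (95% interval -0.44 to -0.04, adjusted p = 0.126) with rosiglitazone and by 0.00 (95% interval -0.19 to 0.20, adjusted p = 0.993) with MRL24. None of these passed the test. Ifit3, which has 1 probe set, passed with rosiglitazone at an unchanged -0.16 when other genes were averaged over their probe sets (adjusted p = 0.0398). It also passed with arrays scaled to the same median (-0.19, adjusted p = 0.0405). Of the group means over 33 members, that of S273A was the lowest of the 4 in 22, against 29.7% of all genes, and that of untreated wild-type the highest in 17, against 27.1%, with MRL24 the highest in 12, against 29.4%. The 3 S273A arrays lay below the other 9 in 9 members (Adar, Ifi35, Ifit1, Ifit2, Ifit3, Iigp1, Irgm1, Samhd1 and Usp18), where 5.01% of all genes did so. The 3 untreated wild-type arrays lay above the other 9 in 7 members (Bst2, Gbp3, Ifi27l2b, Ifi35, Ifit3, Ifitm2 and Oasl2), where 3.29% did so. By the order of their arrays Ifi35 and Ifit3 belong to both sets, with the ligand groups in between.

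The direct comparison of ligand-treated wild-type cells with S273A cells tested which members separated these groups. Receptor form and ligand both differ in it, and both comparisons share the S273A arrays. The level of Pparg RNA was also lower with either ligand than in S273A cells, at an adjusted p under 0.05 in both comparisons. With rosiglitazone minus S273A 5 members were higher (15.2%) and 1 was lower (3.03%), where 5.36% of all genes were higher and 4.2% lower. With MRL24 minus S273A 4 were higher (12.1%) and 1 was lower (3.03%), where 6.31% were higher and 3.73% lower. The median differences were 0.13 and 0.16, against 0.012 and 0.025 over all genes. At an unadjusted p under 0.05 the counts were 10 and 15, with no share over all tested genes taken.

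Ifit3 was higher by 0.32 (SE 0.05, adjusted p = 0.000753) with rosiglitazone and by 0.43 (SE 0.05, adjusted p = 0.000112) with MRL24 than in S273A cells. Irgm1 was higher by 0.39 (SE 0.08, adjusted p = 0.00383) with rosiglitazone and by 0.32 (SE 0.08, adjusted p = 0.0181) with MRL24. The MRL24 call of Irgm1 was lost without S273A replicate 1 (adjusted p = 0.0539) or 2 (adjusted p = 0.0681) and without MRL24 replicate 2 (adjusted p = 0.0792) or 3 (adjusted p = 0.0653). Trim25 was higher by 0.35 (SE 0.06, adjusted p = 0.00108) with rosiglitazone and by 0.27 (SE 0.06, adjusted p = 0.0108) with MRL24, and its other 2 probe sets moved the same way, by 0.37 and 0.55 with rosiglitazone and by 0.24 and 0.46 with MRL24. Without MRL24 replicate 3 the MRL24 call of Trim25 was lost (adjusted p = 0.0503). Tapbp was lower by the same probe set as before, at -0.22 (SE 0.06, adjusted p = 0.0295) with rosiglitazone and -0.28 (SE 0.06, adjusted p = 0.00805) with MRL24.

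Usp18 was higher with MRL24 than in S273A cells, by 0.52 (SE 0.09, adjusted p = 0.00259), and with rosiglitazone the difference was 0.28 (95% interval 0.08 to 0.48, adjusted p = 0.0715). Ifit1 was higher with rosiglitazone, by 0.29 (SE 0.09, adjusted p = 0.0456), a call lost without 8 of the 12 arrays taken singly (adjusted p 0.0514 to 0.183), namely untreated wild-type replicate 3, S273A replicates 1 and 2, rosiglitazone replicates 1 and 3, and each MRL24 replicate. It was also lost with no filter (adjusted p = 0.0762), same median (adjusted p = 0.0626), quantile normalization (adjusted p = 0.0628), the 6 arrays (adjusted p = 0.0703) and no trend (adjusted p = 0.0501). With MRL24 the Ifit1 difference was 0.22 (95% interval 0.03 to 0.40, adjusted p = 0.123). Samhd1 was higher with rosiglitazone by 0.28 (SE 0.08, adjusted p = 0.029), again on 1 probe set. That call was lost without S273A replicate 2 (adjusted p = 0.0662) or 3 (adjusted p = 0.113) and without rosiglitazone replicate 2 (adjusted p = 0.121) or 3 (adjusted p = 0.0731), for the mean of its probe sets (adjusted p = 0.876), with no filter (adjusted p = 0.0506) and with no trend (adjusted p = 0.0558). The rosiglitazone call of Tapbp against S273A was lost without S273A replicate 1 (adjusted p = 0.072), 2 (adjusted p = 0.0597) or 3 (adjusted p = 0.0913) and without rosiglitazone replicate 1 (adjusted p = 0.139) or 2 (adjusted p = 0.0878), and with no trend (adjusted p = 0.0678). For the mean of its probe sets neither Tapbp call against S273A held (adjusted p = 0.255 with rosiglitazone and 0.647 with MRL24).

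Bst2, Ifi27l2b and Ifitm2, which fell in all 3 comparisons with untreated wild-type, did not pass the test against S273A. Bst2 differed from S273A by 0.02 (95% interval -0.15 to 0.19, adjusted p = 0.92) with rosiglitazone and by 0.12 (95% interval -0.05 to 0.29, adjusted p = 0.362) with MRL24. Ifi27l2b differed by -0.02 (95% interval -0.25 to 0.22, adjusted p = 0.952) with rosiglitazone and by -0.13 (95% interval -0.37 to 0.10, adjusted p = 0.484) with MRL24. Ifitm2 differed by -0.03 (95% interval -0.12 to 0.05, adjusted p = 0.701) with rosiglitazone and by -0.01 (95% interval -0.10 to 0.07, adjusted p = 0.892) with MRL24. All 3 MRL24 arrays of Cxcl10 lay above the S273A arrays, but the difference of 0.69 (95% interval 0.22 to 1.16, adjusted p = 0.0577) did not pass. It was called without untreated wild-type replicate 2 (adjusted p = 0.041), S273A replicate 3 (adjusted p = 0.0408) or rosiglitazone replicate 3 (adjusted p = 0.0396), on the 6 arrays of the compared groups (adjusted p = 0.0367) and with array weights (adjusted p = 0.0227). Over the list, leaving out S273A replicate 2 left 3 calls with rosiglitazone minus S273A, and leaving out MRL24 replicate 3 left 3 with MRL24 minus S273A. When no intensity filter was set, dim Mx1 was lower with MRL24 than in S273A cells, at a log2 difference of -0.76 (adjusted p = 0.0276) and intensities of 28.0, 19.9 and 24.3 with MRL24, against 60.7, 51.2 and 43.6 in S273A cells.

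**Figure D4:**
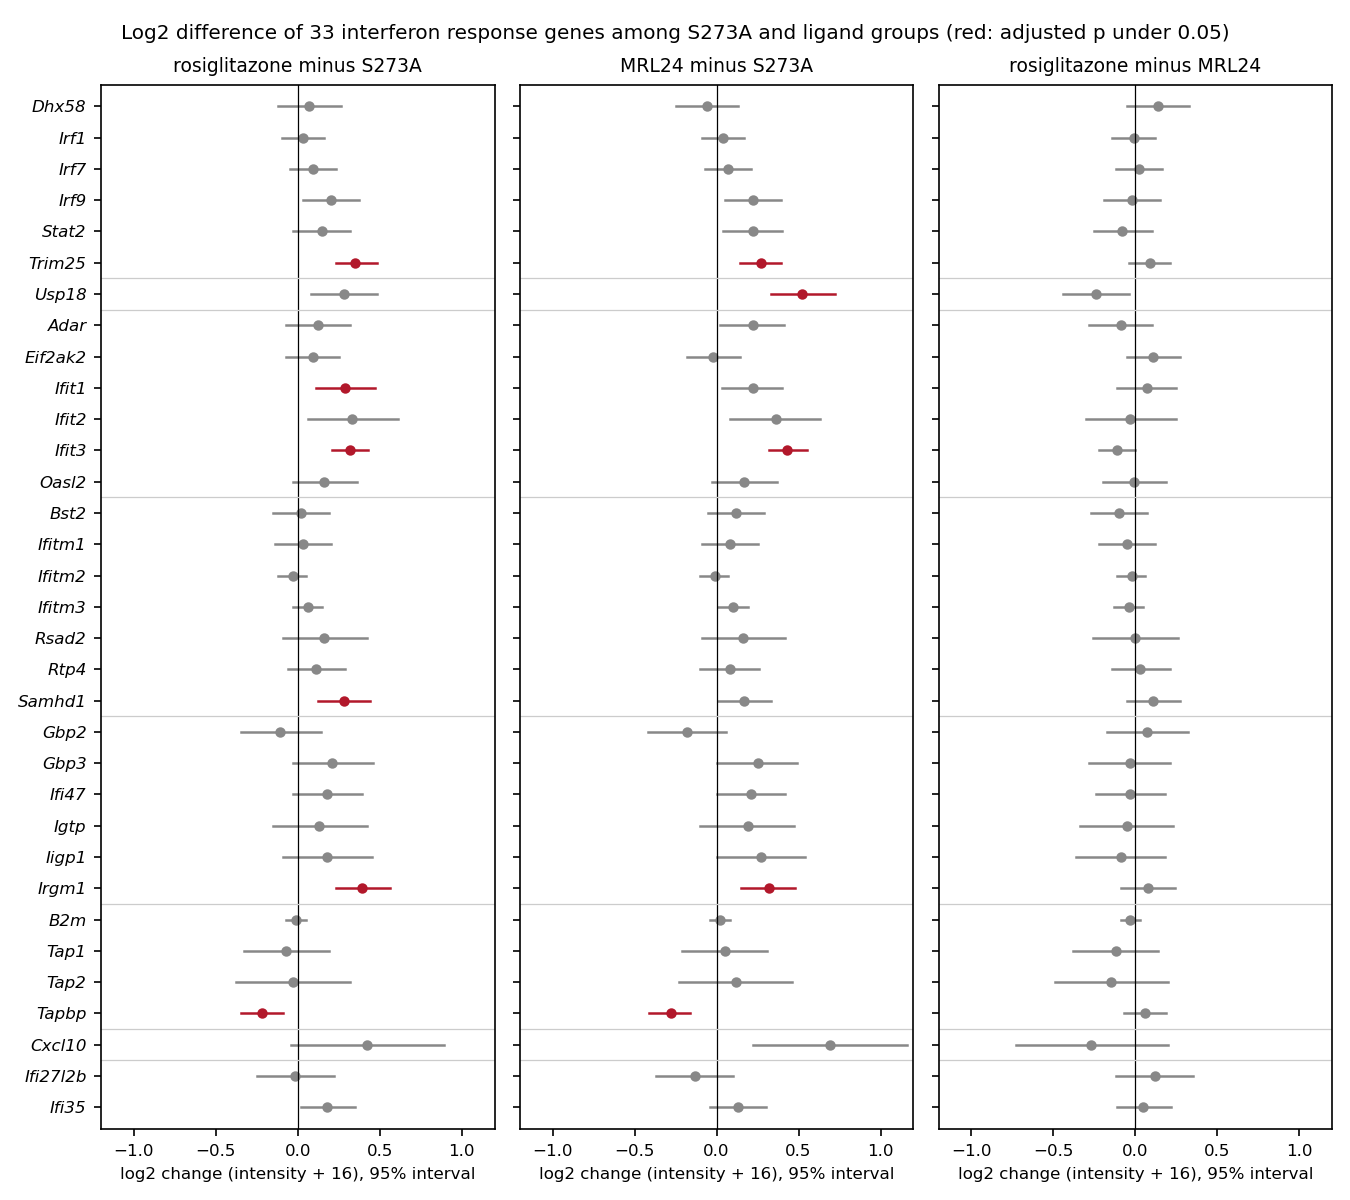
Log2 difference (intensity + 16) of the 33 tested members for rosiglitazone minus S273A, MRL24 minus S273A and rosiglitazone minus MRL24, as points with 95% intervals, red where the adjusted p was under 0.05. Ifit3, Irgm1 and Trim25 are red and above 0 against S273A for both ligands, Tapbp is red and below 0, and no member is red between the ligands.

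At the matched dose of 1 µM and time of 24 h, no member passed the test between rosiglitazone and MRL24, with 0 higher and 0 lower, where 1.5% of all genes were higher and 1.16% lower. At an unadjusted p under 0.05 the count was 1, Usp18, at -0.24 (95% interval -0.44 to -0.04, adjusted p = 0.208). Its rosiglitazone arrays all lay below its MRL24 arrays. The 33 differences ran from -0.27 to 0.14, with a median of -0.02 against -0.016 over all genes, and no 95% interval reached further from 0 than 0.73, that of Cxcl10. For Bst2 the difference was -0.10 (95% interval -0.27 to 0.07, adjusted p = 0.591) and for Ifit3 -0.11 (95% interval -0.22 to 0.00, adjusted p = 0.328). Fabp4 was higher with rosiglitazone than with MRL24 by 0.71 (SE 0.05, adjusted p = 3.93e-07). Both groups carried wtPPARgamma, and this was the 1 pair of compounds compared.

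Other genes of the pathway were taken from lists of receptors, ligands, sensors, regulators and further interferon-stimulated genes. None of 9 tested receptor and kinase genes passed the test with S273A, and their median was -0.01. The shares over all tested genes were 5.48% lower and 2.31% higher, so 0 of 9 does not set this list apart. Ifnar2, a chain of the type I receptor, fell by 0.21 (SE 0.04, adjusted p = 0.00398) with rosiglitazone, and Il10rb, shared by the interferon-λ receptor, fell by 0.23 (SE 0.06, adjusted p = 0.0214). Jak2, a kinase of the interferon-γ receptor, rose by 0.29 (SE 0.08, adjusted p = 0.045) with MRL24. Of the interferon ligands 9 were on the array, and the 2 above the filter, Ifnz and Ifna1, were not called in any of the 6 comparisons. Ifnz, an interferon zeta gene described here after its values were seen, read 170.2, 184 and 145 in S273A cells, 199, 234 and 229 with rosiglitazone, 194, 234 and 214 with MRL24, and 222, 206 and 224 in untreated wild-type cells. Here the S273A arrays were again the lowest 3 of the 12, yet the difference of -0.36 (95% interval -0.61 to -0.12, adjusted p = 0.0724) did not pass. Against S273A Ifnz differed by 0.38 (95% interval 0.13 to 0.63, adjusted p = 0.0513) with rosiglitazone, a difference that passed without untreated wild-type replicate 2 (adjusted p = 0.0428), and by 0.34 (95% interval 0.09 to 0.58, adjusted p = 0.0787) with MRL24. Ifna1, an interferon-α gene, differed with S273A by -0.21 (95% interval -0.61 to 0.18, adjusted p = 0.552), and its arrays overlapped. Ifnb1, the interferon of fibroblasts, read 111 to 128 in S273A cells and 93.7 to 143 in untreated wild-type cells, below the filter and overlapping.

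Among 25 tested further interferon-stimulated genes, 4 fell and 1 rose with S273A, with a median of -0.11. Of all tested genes 5.48% fell and 2.31% rose, with a median of -0.005. Mndal fell by 0.33 (SE 0.05, adjusted p = 0.000871), Trim30a fell by 0.37 (SE 0.09, adjusted p = 0.0135), Ifi202b fell by 0.18 (SE 0.04, adjusted p = 0.0205) and Parp9, the partner of a ubiquitin ligase, fell by 0.36 (SE 0.10, adjusted p = 0.0445). Mndal and Ifi202b belong to the same family of DNA-binding proteins, and whether their probe sets share RNA was not tested. Sp110, a nuclear body protein, rose by 0.36 (SE 0.10, adjusted p = 0.0463). Without untreated wild-type replicate 2 Parp9 (adjusted p = 0.114) and Sp110 (adjusted p = 0.141) were not called. With MRL24 minus S273A 5 of the 25 were higher and 0 lower, and with rosiglitazone minus S273A 3 were higher and 1 lower. Of all tested genes 6.31% were higher and 3.73% lower with MRL24 minus S273A, and 5.36% and 4.2% with rosiglitazone minus S273A. Mndal was higher by 0.23 (SE 0.05, adjusted p = 0.0106) with MRL24 and by 0.22 (SE 0.05, adjusted p = 0.0102) with rosiglitazone.

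Nucleic acid sensors and adaptors had 0 of 8 called with S273A, MHC class I and immunoproteasome genes 0 of 9, and MHC class II genes 0 of 3. As 5.48% of all tested genes fell and 2.31% rose, counts of 0 do not set lists of this size apart. Of 9 other regulatory factors and brakes, Ptpn11, the phosphatase SHP2, fell by 0.34 (SE 0.07, adjusted p = 0.00383) with S273A. Ptpn11 was also called lower with rosiglitazone and with MRL24, each against the same untreated arrays. Socs3, a feedback inhibitor of cytokine receptors, fell by 0.24 (SE 0.06, adjusted p = 0.0135) with rosiglitazone and fell by 0.20 (SE 0.06, adjusted p = 0.0436) with MRL24.

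Markers of cell types moved with S273A beside these genes. Of 9 tested fibroblast markers 6 fell with S273A and 0 rose, where 5.48% of all tested genes fell and 2.31% rose. Pdgfra fell the most, by 0.64 (SE 0.06, adjusted p = 7.83e-06). Against the same untreated arrays 2 of the 9 fell with rosiglitazone, Pdgfra and Thy1, and 1 with MRL24, Pdgfra. Of all tested genes 4.58% fell with rosiglitazone and 2.47% with MRL24. The summed level of the 10 fibroblast markers was 95071 to 101035 in S273A cells, 102117 to 106821 with rosiglitazone and 107817 to 111573 with MRL24, against 100652 to 110558 in untreated wild-type cells. Of 7 tested macrophage and dendritic markers Cd68 rose by 0.63 (SE 0.07, adjusted p = 4.55e-05) and the others did not pass. The sum over all 15 on the array was 4932 to 5119 in S273A cells, with 4417 to 4755 under rosiglitazone and 4353 to 4583 under MRL24, against 4211 to 4576 in untreated wild-type cells. In rosiglitazone minus S273A 4 of the 9 fibroblast markers were higher and Cd14 and Cd68 lower, and in MRL24 minus S273A 5 of the 9 were higher and Cd14 and Cd68 lower. Over all tested genes 5.36% were higher and 4.2% lower in the former, and 6.31% and 3.73% in the latter. The markers of this list differed widely in level. Over the 12 arrays the 7 tested ones included Csf1r at 1297 to 2010.4, Cd68 at 459 to 878, Cd14 at 510.4 to 675, Flt3 at 406 to 577, Mrc1 at 324 to 437 and Adgre1 at 137 to 285. Those below the filter included Ptprc, the marker of all white blood cells, at 10.8 to 63.4, Lyz2 at 1.0 to 24.5 and Aif1 at 1.0 to 32.3.

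T, NK and B cell markers had 0 of 5 called with S273A, and summed to 1270 to 1326 in S273A cells and 1097 to 1336 in untreated wild-type cells. Of 3 tested endothelial markers Tek rose by 0.49 (SE 0.12, adjusted p = 0.0208), and the sum over 7 was 787 to 1001 in S273A cells and 729 to 1099 in untreated wild-type cells. Adipocyte markers had 0 of 7 called with S273A, and 3 of 7 rose with each ligand. Of all tested genes 5.48% fell and 2.31% rose with S273A, so counts of 0 do not set these lists apart. With rosiglitazone 3.94% of all tested genes rose and with MRL24 3.39%. The 11 on the array summed to 13916 to 15067 in S273A cells, 31151 to 31414 with rosiglitazone and 20025 to 20212 with MRL24, against 12994 to 14856 in untreated wild-type cells. The part of these marker changes in the interferon response results was not tested.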

How the data were processed

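The authors deposited 1 table of intensity values on a linear scale for 12 arrays, already normalized by a method not given in the sources used here. All 12 columns were used. GEO's platform annotation gives a single symbol to 20380 of the 22690 probe sets, several to 691 and none to 1555, the remaining 64 being controls. Each gene was read from its brightest single-symbol probe set. Genes with a mean below the 30th percentile (132.3) were left out. Values at or below 1 made up 2.11% to 2.48% of an array. On log2(intensity + 16), 1 limma 3.58.1 model (R 4.3.3) with a mean per group was fitted to all 12 arrays, with eBayes and a trend, 8 residual and 7.56 prior degrees of freedom, a median residual SD of 0.097 and Benjamini-Hochberg adjustment over 8675 genes. Means ± SD are of intensities. The procedure was tested on simulated data. Tables and figures used python 3.11.15, numpy 2.4.6, pandas 2.3.3 and matplotlib 3.10.9. Promoters are RefSeq's, from GRCm38.p6. The members and lists were chosen with earlier results of these data known. Members called in any comparison are given by array, others by their range or interval, and of other lists up to 4 called genes. Alternatives were other filters, pseudocounts, probe set choices, scalings, array weights, no trend, a replicate block, the 6 arrays of a pair of groups and each array left out, and, chosen after seeing the data, a filter over probe sets.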

Additional observations from a re-analysis of the deposited data

How the results depend on the processing

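The 13 calls with S273A became 8 on the 6 arrays of the 2 groups alone, the 4 with rosiglitazone became 2 and the 4 with MRL24 became 2. The same kind of fit gave 0 between the ligands, 5 calls in place of 6 with rosiglitazone minus S273A and 7 in place of 5 with MRL24 minus S273A, where Ifitm3 (adjusted p = 0.049) and Cxcl10 (adjusted p = 0.0367) were added. The cause was not tested. Leaving out each array in turn gave 9 to 13 calls with S273A minus wild-type, 1 to 6 with rosiglitazone minus wild-type, 1 to 6 with MRL24 minus wild-type, 0 to 0 with rosiglitazone minus MRL24, 3 to 6 with rosiglitazone minus S273A and 3 to 7 with MRL24 minus S273A. The counts stayed within 1.5 times under all the other alternatives, although with rosiglitazone they held 1 higher member, Trim25, for the mean of probe sets, quantile normalization, array weights and the filter at the 50th percentile, and with MRL24 for the mean of probe sets. Other calls that were added under these settings were Gbp3 with rosiglitazone with no trend (adjusted p = 0.0227), Ifi35 with MRL24 with the same median (adjusted p = 0.0323) or quantile normalization (adjusted p = 0.0359), and Usp18 with rosiglitazone minus S273A with no trend (adjusted p = 0.0459). MRL24 minus S273A added higher Ifitm3 with array weights (adjusted p = 0.03) or without untreated wild-type replicate 2 (adjusted p = 0.0318). Without untreated wild-type replicate 1 Ifi35 and Oasl2 also fell with rosiglitazone (adjusted p = 0.0478 and 0.0407). They fell with MRL24 there too (adjusted p = 0.0255 and 0.0433). With rosiglitazone Ifit3 also fell without rosiglitazone replicate 3 (adjusted p = 0.0407), and Ifitm3 without untreated wild-type replicate 3 (adjusted p = 0.0475). Tapbp reversed to 0.01 (adjusted p = 0.942) with MRL24 minus wild-type when its probe sets were averaged, as the second probe set moved the other way. Same-numbered arrays correlated by -0.116 to 0.147 in their deviations from group means, so the numbers were not taken to pair the samples. With the number as a replicate block the counts were 12 with S273A, 4 with rosiglitazone, 3 with MRL24, 0 between the ligands, 6 with rosiglitazone minus S273A and 5 with MRL24 minus S273A. Under every alternative in which they were tested the calls held for Bst2, Usp18, Ifit1, Ifit3, Ifi35 and Irgm1 with S273A, Bst2 with rosiglitazone, Ifi27l2b with MRL24, Ifit3, Irgm1 and Trim25 with rosiglitazone minus S273A, and Usp18 and Ifit3 with MRL24 minus S273A. Low signal limits what can be said of Ifih1, Mx1, Mx2 and Parp14, which lay below the filter. With no filter 1 of these 4 was called in 1 comparison, Mx1 with MRL24 minus S273A.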

Other observations

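Of the 25 further interferon-stimulated genes 3 rose and 3 fell with rosiglitazone, where 3.94% of all tested genes rose and 4.58% fell. With MRL24 1 rose and 0 fell, where 3.39% rose and 2.47% fell. Uba7, the enzyme that activates ISG15 for conjugation, read 1273, 1209.5 and 1268 in S273A cells, 1651, 1557 and 1499 with rosiglitazone, 1443, 1389.7 and 1437 with MRL24, and 1336, 1277 and 1261 in untreated wild-type cells, with the rosiglitazone arrays above those of untreated wild-type cells, and it rose by 0.28 (SE 0.05, adjusted p = 0.0037) with rosiglitazone. Sp110 rose by 0.52 (SE 0.10, adjusted p = 0.00537) with rosiglitazone and rose by 0.41 (SE 0.10, adjusted p = 0.0353) with MRL24, in addition to its rise with S273A, all 3 against the same untreated arrays. Without untreated wild-type replicate 2 the MRL24 call of Sp110 was lost (adjusted p = 0.143).

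Plscr1, a phospholipid scramblase induced by interferon, was the only 1 of the 25 further interferon-stimulated genes called between the ligands, lower with rosiglitazone than with MRL24, at -0.16 (SE 0.04, adjusted p = 0.0446). It read 2509.8, 2562 and 2528 with rosiglitazone, against 2838, 2822 and 2844 with MRL24. Pml, which organises nuclear bodies, fell by 0.30 (SE 0.07, adjusted p = 0.0135) with rosiglitazone.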
